A study of Mus musculus with 16 samples.

Results

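The genes described here are 43 listed genes of the synaptic vesicle and its release machinery, of 55385 gene identifiers in each deposited file. They were chosen by name and not by a measured value, though with earlier results of these data known. They comprise 3 synapsins, 4 vesicle tetraspan proteins, 3 SV2 proteins, 12 synaptotagmins, 4 SNARE proteins, 8 priming and active zone proteins, Rab3a with the C2-domain proteins Rph3a and Doc2b, 3 complexins and 3 vesicular glutamate transporters. RNA was sequenced from primary hippocampal cultures of newborn mice in 16 libraries, 4 in each of 4 groups. Control-shRNA baseline cultures expressed a control short hairpin RNA and received no bicuculline, and Control-shRNA bicuculline cultures were treated with bicuculline for 4 h. Dnmt3a1-shRNA baseline and Dnmt3a1-shRNA bicuculline cultures expressed a hairpin against Dnmt3a1, the long isoform of the DNA methyltransferase Dnmt3a, without and with the same treatment. All groups were infected with recombinant adeno-associated virus that also encoded GFP under the chicken beta-actin promoter, so no uninfected culture was among them. Bicuculline blocks GABA-A receptors, which releases the excitatory network from inhibition. Each library of a group came from a separate neuronal preparation. A single knockdown construct was sequenced, so that the loss of Dnmt3a1 and any other effect of this hairpin cannot be told apart.

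A synaptic vesicle is filled with transmitter by vesicular transporters, held in a cluster by synapsins, and docked and primed at the active zone by scaffolds such as Bassoon, Piccolo, RIM and Munc13. Fusion is carried out by a SNARE complex of synaptobrevin (Vamp), syntaxin and SNAP-25, clamped and assisted by complexins, and triggered when calcium binds a fast synaptotagmin. Most of these proteins come in small families of paralogs, and which paralog a neuron uses differs with its type and its activity. Dnmt3a places methyl groups on cytosines of DNA, chiefly in CpG dinucleotides.

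Dnmt3a transcripts, summed over isoforms, served as a check of the shRNA labels. They lay between 293 and 324 CPM (read counts scaled to a common library size, with TMM factors) in Control-shRNA baseline and between 311 and 338 CPM in Control-shRNA bicuculline. With Dnmt3a1-shRNA they lay between 39.4 and 48 CPM at baseline and between 43.8 and 47.8 CPM with bicuculline. The log2 fold change was -2.81 (SE 0.06) at baseline, and all libraries bore out their shRNA labels. With bicuculline Dnmt3a changed by 0.06 in Control-shRNA and 0.03 in Dnmt3a1-shRNA, so it does not check the bicuculline labels. The 16 libraries held 28912697 to 29586355 counted read pairs each. Markers of neurons in general summed to between 3348 and 5531 CPM over the 16 libraries, astrocyte markers to between 684 and 1028 CPM, and microglial markers to between 1.89 and 4.91 CPM. The cultures were therefore mixed, and in such bulk RNA fewer cells of a type and less RNA per cell cannot be told apart.

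All 43 genes passed the filter on low counts and were tested among 17222 genes. In Control-shRNA baseline their TPM values (a level scaled for transcript length and library total) ranged from 1368 ± 22.9 (SD, n = 4) for Vamp2 to 0.809 ± 0.401 for Cplx3. Of the 43, 21 exceeded 100 TPM, against 10.8% of all tested genes, and 8 lay under 10 TPM. The median was 91 TPM for the listed genes and 12.3 TPM for all tested genes. The highest levels were those of Vamp2, the vesicle SNARE, followed by Syp (synaptophysin) with 1148 ± 75.9 TPM, Snap25 with 1131 ± 109 TPM and Rab3a with 1025 ± 21.8 TPM. Vamp2 lay apart from Syp in all 4 libraries, whereas Syp and Snap25, and Snap25 and Rab3a, overlapped. Of the 42 neighbouring pairs in this order, 25 overlapped and 17 did not.

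Within families 1 or 2 paralogs held most of the transcripts at baseline. Slc17a7 (VGLUT1) stood at 846 ± 63.4 TPM, Slc17a6 (VGLUT2) at 11.4 ± 2.02 TPM and Slc17a8 (VGLUT3) at 3.88 ± 0.616 TPM. Syn1 at 620 ± 9.26 TPM and Syn2 at 473 ± 7.2 TPM exceeded Syn3 at 9.11 ± 2.89 TPM. Among the fast calcium sensors Syt1 reached 640 ± 54.6 TPM, Syt9 18.7 ± 1.72 TPM and Syt2 9.73 ± 1.67 TPM. Vamp1 at 36.1 ± 2.01 TPM was far below Vamp2, and Unc13c (Munc13-3) at 1.85 ± 0.365 TPM was far below Unc13a (Munc13-1) at 112 ± 7.2 TPM. The 43 genes together made up 1.12 to 1.22% of all TPM in this group and between 1 and 1.25% in any library.

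**Figure D1:**
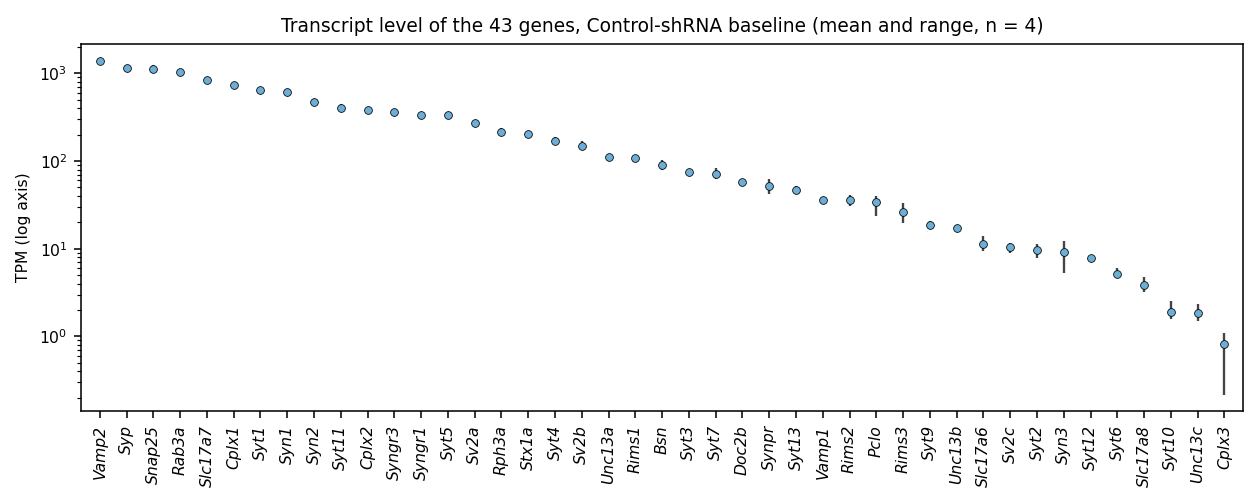
Mean TPM of each of the 43 genes in Control-shRNA baseline on a log axis, in falling order; points are means of 4 libraries and lines run from the lowest to the highest library. Levels span from 1368 TPM for Vamp2 to 0.809 TPM for Cplx3, and most neighbours overlap.

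The first comparison asked how these genes responded to bicuculline in Control-shRNA cultures. A call needed an absolute log2 fold change over 0.5 and an adjusted p under 0.05 (edgeR quasi-likelihood fit, Benjamini-Hochberg method, all tested genes). By this rule Syt4, Slc17a6 and Sv2c were higher and Sv2b was lower, while 39 of the 43 genes were not called. Higher calls made up 3 of 43 members against 10.8% of all tested genes, and lower calls 1 of 43 against 11.1%. In Dnmt3a1-shRNA cultures Syt4, Slc17a6 and Sv2c were again called higher (3 of 43, background 12.6%), and Sv2b and Doc2b were called lower (2 of 43, background 13.2%). At this fold threshold the members' shares were below these backgrounds in both directions, by a few genes and without a test of the set.

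Syt4 had the largest change. It encodes a synaptotagmin of vesicles and dense-core granules whose first C2 domain lacks a residue used for calcium binding, and it is a known activity-induced gene. In Control-shRNA baseline the 4 libraries held 298, 287, 314 and 316 CPM, and with bicuculline they held 1845, 1061, 1251 and 1511 CPM. In Dnmt3a1-shRNA the values were 401, 350, 396 and 398 CPM at baseline and 2089, 1622, 1307 and 1778 CPM with bicuculline. Every treated library exceeded every untreated one, though the treated libraries spread widely. The log2 fold change was 2.22 (SE 0.15, adjusted p = 2.39e-09 in edgeR) in Control-shRNA and 2.14 (SE 0.15, adjusted p = 2.90e-09) in Dnmt3a1-shRNA. The exons of Syt4 share 14.5% of their bases with Gm26658 on the opposite strand, which reached at most 1.78 CPM.

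Slc17a6 encodes VGLUT2, which loads glutamate into vesicles and is used early in development and in subcortical neurons. Its libraries held 18.4, 22.3, 24.9 and 19.8 CPM in Control-shRNA baseline and 76.1, 48.8, 55.5 and 68.2 CPM with bicuculline. With Dnmt3a1-shRNA they held 27.4, 29.8, 32.5 and 29.5 CPM at baseline and 110, 81.1, 62.4 and 91.7 CPM with bicuculline. Treated and untreated libraries did not overlap within either shRNA. The log2 fold change was 1.54 (SE 0.16, edgeR adjusted p = 4.72e-07) and 1.53 (SE 0.16, adjusted p = 3.37e-07), respectively. Its paralog Slc17a7, the main transporter of these cultures, was at 1105 ± 63.4 CPM (SD, n = 4) without and 1140 ± 84.9 CPM with bicuculline in Control-shRNA, and its log2 fold change of 0.04 (SE 0.10) did not pass the test. In Dnmt3a1-shRNA its log2 fold change was -0.03 (SE 0.10), and both of these small values changed sign with a library left out. Slc17a8 decreased below the fold threshold, by -0.32 (SE 0.12, edgeR adjusted p = 0.0351) and -0.48 (SE 0.12, adjusted p = 0.00286) on the log2 scale, from a level of 7.07 ± 0.779 CPM.

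The SV2 family, vesicle membrane proteins with a transporter fold, split in direction. Sv2c held 45.2, 38.2, 44.9 and 50.1 CPM in Control-shRNA baseline and 94.2, 85.3, 89.9 and 92.3 CPM with bicuculline. In Dnmt3a1-shRNA it held 40.9, 33.1, 51.7 and 41.2 CPM at baseline and 114, 81.8, 95.2 and 101 CPM with bicuculline. All treated libraries were above all untreated ones, with log2 fold changes of 1.02 (SE 0.12, edgeR adjusted p = 2.00e-06) and 1.23 (SE 0.12, adjusted p = 1.73e-07). Sv2b, in contrast, held 370, 349, 399 and 368 CPM in Control-shRNA baseline and 270, 251, 262 and 225 CPM with bicuculline. In Dnmt3a1-shRNA it held 282, 291, 433 and 292 CPM at baseline and 199, 175, 229 and 180 CPM with bicuculline. Every treated library was lower than every untreated library of the same shRNA, and the log2 fold changes were -0.56 (SE 0.12, edgeR adjusted p = 0.001) and -0.73 (SE 0.12, adjusted p = 6.83e-05). The 433 CPM of replicate 3 stood above the other 3 libraries of its group, and without it the latter change was -0.56, still called. Sv2a, the most abundant of the 3, rose by 0.16 (SE 0.05, edgeR adjusted p = 0.0204) in Control-shRNA, which became -0.0028 when libraries were scaled by their totals alone.

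Doc2b, a soluble C2-domain calcium sensor linked to spontaneous and asynchronous release, fell with bicuculline in both shRNAs. Its libraries held 128, 113, 108 and 114 CPM in Control-shRNA baseline and 93.2, 92.6, 80.3 and 83.9 CPM with bicuculline. In Dnmt3a1-shRNA they held 158, 136, 134 and 147 CPM at baseline and 105, 99.9, 88.2 and 93.1 CPM with bicuculline. No treated library reached an untreated one of the same shRNA. The log2 fold change was -0.57 (SE 0.08, edgeR adjusted p = 7.20e-06) in Dnmt3a1-shRNA, and -0.40 (SE 0.08, adjusted p = 3.44e-04) in Control-shRNA, where it stayed short of the fold threshold. The difference between these 2 responses, -0.17 (SE 0.11), did not pass the interaction test.

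**Figure D2:**
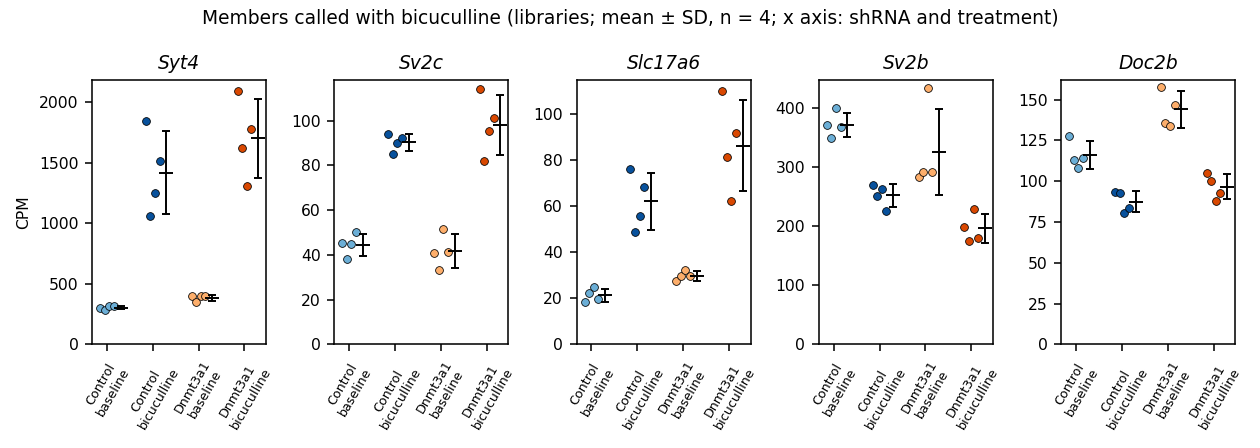
CPM of Syt4, Sv2c, Slc17a6, Sv2b and Doc2b in each of the 16 libraries (points, axes from 0), with the mean ± SD of each group of 4 (bar beside the points). Treated libraries lie above untreated ones of the same shRNA for Syt4, Sv2c and Slc17a6, and below them for Sv2b and Doc2b.

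The core fusion machinery moved less. Without a fold threshold, at an adjusted p under 0.05, 13 members (30.2%) were higher and 4 (9.3%) lower with bicuculline in Control-shRNA. The shares of all tested genes were 19.5% and 21.9%. In Dnmt3a1-shRNA 14 (32.6%) were higher and 4 (9.3%) lower, against 20.8% and 25.2% of all tested genes. The members' share of higher genes was thus above the background here, unlike with the fold threshold, and it depended on the scaling. Of the 4 SNARE genes 3 were higher in both shRNAs. Snap25 changed by 0.36 (SE 0.06, edgeR adjusted p = 1.01e-04) and 0.37, Vamp1 by 0.44 and 0.48, and Vamp2 by 0.30 and 0.24 on the log2 scale in Control-shRNA and Dnmt3a1-shRNA, respectively. Syntaxin-1A (Stx1a) changed by 0.01 and -0.04 and did not pass. Syt5 (0.32 and 0.30), Rph3a, the Rab3 effector rabphilin (0.37 and 0.32), Syn1 (0.24 and 0.22), Syp (0.22 and 0.19) and Cplx1 (0.22 and 0.19) were also higher in both, whereas Syt3 (-0.30 and -0.40) was lower in both. Of the 8 priming and active zone genes, Unc13b (Munc13-2) alone passed, with 0.48 (SE 0.13, edgeR adjusted p = 0.00545) in Dnmt3a1-shRNA, and the other values of these genes ranged from -0.10 (Pclo, Control-shRNA) to 0.23 (Unc13b, Control-shRNA).

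How many of these smaller changes passed, and the sign of the members' median, depended on how libraries were scaled. Among the genes higher at an adjusted p under 0.05, only Sv2a, Syngr3 and Cplx1 changed sign by library totals or on TPM. The median log2 fold change of the 43 genes with bicuculline was 0.12 in both shRNAs, against 0.01 and -0.01 for all tested genes. Scaled by library totals alone, the median of all genes moved to -0.15 in Control-shRNA and -0.16 in Dnmt3a1-shRNA, and that of the members to -0.04 and -0.03. Such a change of scaling moves every gene by nearly the same amount, so it could not alter the members' place among all genes. In Control-shRNA the members' median was 0.11 above that of all genes under both scalings, and 32 of the 43 were above the median of all genes in each. By limma on log2(TPM + 1) the members' median in Control-shRNA was -0.08 and that of all genes -0.14, a gap of 0.06, and 27 of the 43 were above it. The counts at an adjusted p under 0.05 became 7 higher and 9 lower in Control-shRNA by library totals (11.9% and 33.2% of all tested genes), and 6 and 10 in Dnmt3a1-shRNA (13.9% and 35.2%). On TPM they were 3 and 9 in Control-shRNA (9.81% and 31.8%) and 4 and 9 in Dnmt3a1-shRNA (11.6% and 32.9%). Of the 13 genes higher in Control-shRNA, 7 passed again by library totals, among them Snap25, Vamp1, Vamp2 and Rph3a, whereas on TPM those 4 did not pass and Syt4, Slc17a6 and Sv2c did. In Dnmt3a1-shRNA, 6 of the 14 higher genes passed again by library totals, without Vamp2 and Rph3a, and on TPM Vamp1 passed beside Syt4, Slc17a6 and Sv2c. All 4 lower genes, Sv2b, Doc2b, Syt3 and Slc17a8, passed again under both alternatives in both shRNAs. Both alternatives lowered the fold changes of genes in general, which favours lower genes, so this does not set them apart from the higher ones. The 3 higher and the lower calls named above for Control-shRNA held under both scalings of the counts. The replicate number was also tried as a block, though the deviations of the libraries cannot settle whether the numbers pair them. The counts without a fold threshold were then 19 higher and 5 lower in Control-shRNA (25.1% and 25.8% of all tested genes).

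Several cell type markers moved with bicuculline. Markers of neurons in general summed to between 3348 and 3820 CPM in Control-shRNA baseline and between 4195 and 4749 CPM with bicuculline, without overlap, but to between 2579 and 2852 TPM and between 2515 and 2637 TPM, which overlapped. Of these 6, the neurofilaments Nefl and Nefm were called higher and the tubulin Tubb3 lower in both shRNAs. Summed GABAergic markers lay between 1123 and 1456 CPM in Control-shRNA baseline and between 1646 and 2123 CPM with bicuculline, and between 841 and 1144 CPM and 1377 and 1875 CPM in Dnmt3a1-shRNA. Of the 6 markers, Gad1, Gad2 and Dlx1 were called higher in both shRNAs and none was called lower. The 5 excitatory markers used summed to between 1404 and 1654 CPM at baseline and 1357 and 1447 CPM with bicuculline in Control-shRNA. Among them Neurod6 was called lower in both shRNAs, from a mean of 251 to 102 CPM in Control-shRNA, while Camk2a, Neurod2 and Prox1 did not pass and Tbr1 was higher below the fold threshold (0.44, edgeR adjusted p = 0.0314 in Control-shRNA). Col1a2, a collagen of fibroblasts, was called higher in both shRNAs (0.55 and 0.56), and none of the astrocyte, oligodendrocyte or microglial markers was called. The part of such shifts in the changes of the vesicle genes was not tested.

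**Figure D3:**
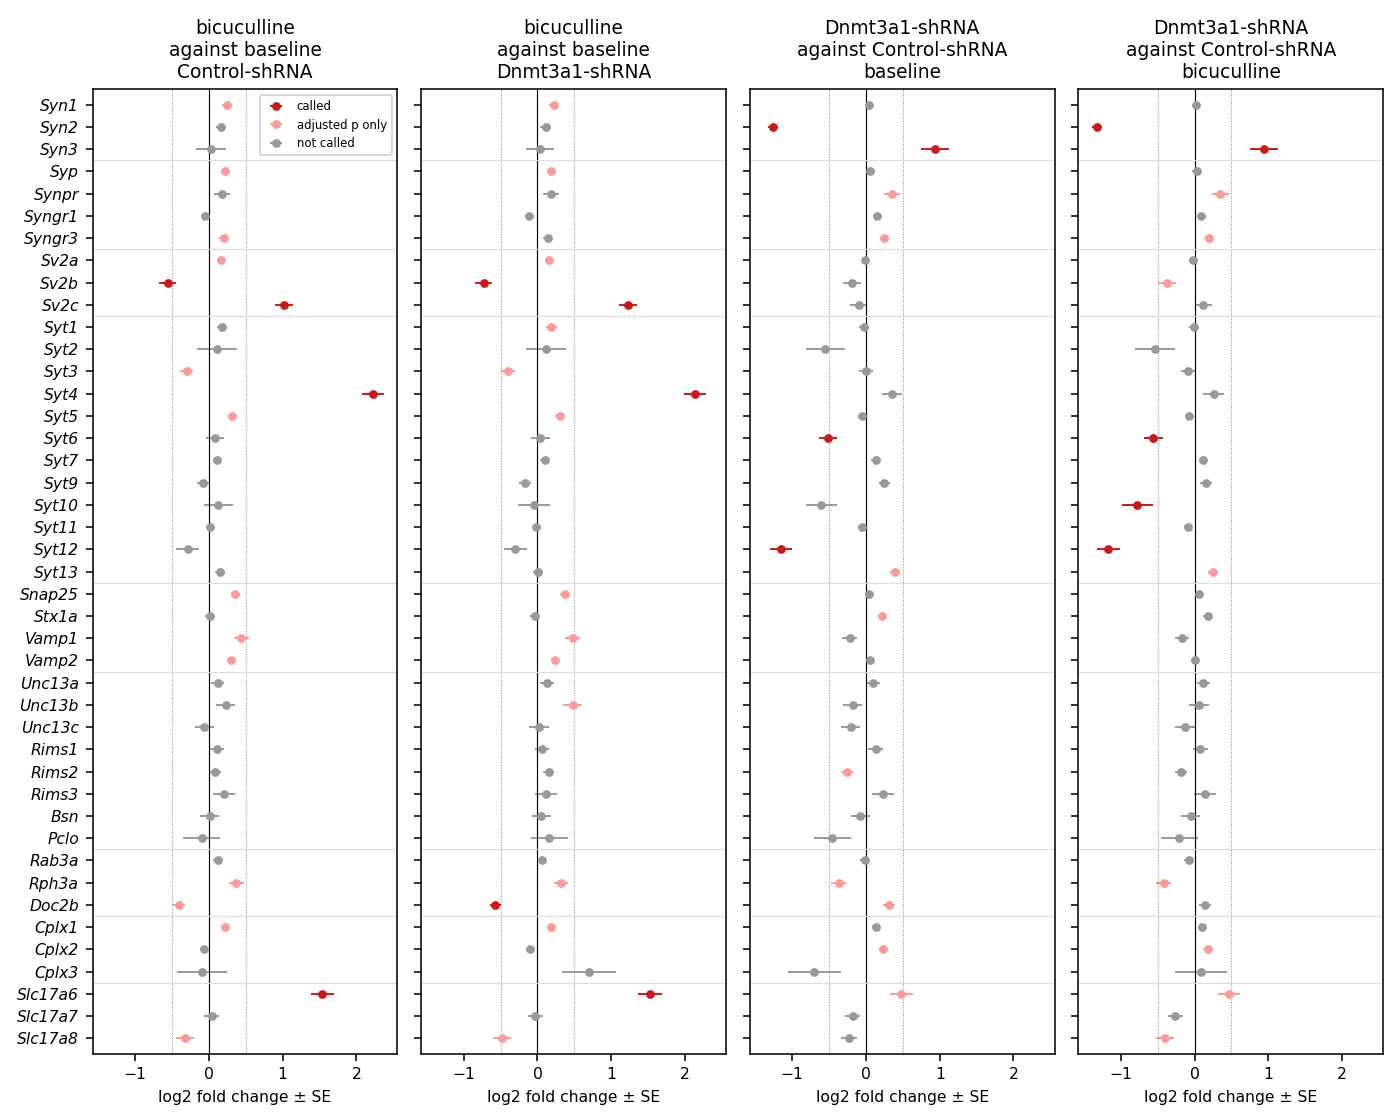
Log2 fold change ± SE of the 43 genes, ordered by role, in the 4 pairwise comparisons; dark red points were called, light red points had an adjusted p under 0.05 with an absolute log2 fold change of at most 0.5, and grey points did not pass. Dotted lines mark the fold threshold of 0.5. Syt4, Slc17a6 and Sv2c stand to the right in both bicuculline panels, and Syn2 and Syt12 to the left in both knockdown panels.

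The knockdown comparison asked which of these genes differed between the hairpins. At baseline Syn3 was called higher and Syn2, Syt12 and Syt6 lower, that is 1 of 43 members higher against 1.76% of all tested genes and 3 of 43 lower against 4.07%. With bicuculline Syn3 was higher (1 of 43, background 2%) and Syn2, Syt12, Syt6 and Syt10 were lower (4 of 43, background 3.9%). Without a fold threshold 8 members were higher and 5 lower at baseline (8.12% and 8.19% of all genes), and 6 were higher and 7 lower with bicuculline (7.69% and 9.99%). This balance depended on the scaling. By library totals the counts were 3 higher and 7 lower at baseline (4.35% and 11.8% of all genes) and 1 and 8 with bicuculline (4.77% and 14.1%), and by limma on log2(TPM + 1) they were 2 and 7 (1.83% and 9.3%) and 1 and 6 (2.25% and 9.74%). The members' median log2 fold change was -0.01 at baseline and 0.02 with bicuculline, beside 0.01 and -0.01 for all genes. The bicuculline and knockdown comparisons share libraries, as each of the 4 groups enters 2 of them.

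Because the hairpin lowered a DNA methyltransferase, the promoter windows of the 2 main synapsins are shown, from 250 bases before to 50 bases after a transcription start that RefSeq gives on GRCm38.p6. Of the 32 genes with a window, 10 have several, and for each of these the window nearest the start of the gene in GENCODE was used. The windows of Sv2b and Sv2c, the paralogs that bicuculline moved in opposite directions, are shown for the same purpose of comparing family members. Capitals mark every CG dinucleotide, counted on the strand of the gene, and methylation was not measured in these libraries.
Syn1, chrX:20920869-20921168, minus strand: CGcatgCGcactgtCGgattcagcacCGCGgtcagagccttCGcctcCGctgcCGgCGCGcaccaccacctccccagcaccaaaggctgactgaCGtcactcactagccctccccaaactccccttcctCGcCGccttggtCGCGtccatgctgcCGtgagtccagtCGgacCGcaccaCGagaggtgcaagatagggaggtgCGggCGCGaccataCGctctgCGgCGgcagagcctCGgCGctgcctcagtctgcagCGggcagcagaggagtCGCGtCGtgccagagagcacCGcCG
Syn2, chr6:115134652-115134951, plus strand: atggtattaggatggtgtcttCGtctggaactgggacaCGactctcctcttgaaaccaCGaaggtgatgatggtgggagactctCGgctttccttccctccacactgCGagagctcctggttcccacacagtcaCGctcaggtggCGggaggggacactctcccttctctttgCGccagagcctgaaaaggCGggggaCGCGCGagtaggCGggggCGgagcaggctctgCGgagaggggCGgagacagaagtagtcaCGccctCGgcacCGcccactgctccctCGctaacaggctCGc
Sv2b, chr7:75309213-75309512, minus strand: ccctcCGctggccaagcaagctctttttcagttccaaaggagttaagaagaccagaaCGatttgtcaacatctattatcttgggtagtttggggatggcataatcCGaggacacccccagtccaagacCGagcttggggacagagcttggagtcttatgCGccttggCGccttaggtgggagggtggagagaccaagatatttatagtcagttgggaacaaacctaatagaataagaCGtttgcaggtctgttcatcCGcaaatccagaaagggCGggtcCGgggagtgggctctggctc
Sv2c, chr13:96132528-96132827, minus strand: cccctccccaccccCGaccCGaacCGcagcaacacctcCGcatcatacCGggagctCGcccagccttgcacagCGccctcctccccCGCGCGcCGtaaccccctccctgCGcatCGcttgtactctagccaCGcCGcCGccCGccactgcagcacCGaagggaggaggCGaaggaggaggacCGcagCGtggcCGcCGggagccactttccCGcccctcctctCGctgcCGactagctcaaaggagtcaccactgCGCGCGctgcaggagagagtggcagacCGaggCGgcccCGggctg

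The Syn1 window held 33 CG dinucleotides and that of Syn2 21, and 8.56% and 24.8% of the 32851 windows in the RefSeq table held as many or more. Sv2b held 10 (43.5% of windows held as many) and Sv2c 32 (9.52%). The second window of Syn2, which begins at 115238744 on chromosome 6, held 5, and the other 3 of Sv2b held 9, 2 and 0, so that these counts rest on the start chosen. The 32 genes had a median of 17.5 CG against 7 for all windows, and a range from 6 in Unc13c to 49 in Syt9. The palindromic cAMP response element TGACGTCA, a binding sequence of CREB, was found in 1 member, Syn1, and in 1.79% of all windows. The AP-1 letters TGACTCA, searched on both strands, were in 0 of the 32 windows and in 5.2% of all. For Syngr3, Syt4, Syt5, Syt7, Syt12, Syt13, Vamp2, Snap25, Doc2b, Rims2 and Syn3 no window was matched.

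Syn2 showed the largest knockdown difference of the 43 genes. It encodes synapsin II, one of the phosphoproteins that tether vesicles in the reserve pool, and lies on chromosome 6 from 115134902 to 115282006 on the plus strand of GRCm38. Its libraries held 817, 738, 728 and 780 CPM in Control-shRNA baseline and 348, 298, 304 and 324 CPM in Dnmt3a1-shRNA baseline. With bicuculline they held 860, 842, 847 and 872 CPM in Control-shRNA and 380, 306, 329 and 360 CPM in Dnmt3a1-shRNA. The highest knockdown library lay below the lowest control library by a wide margin. The log2 fold change was -1.26 (SE 0.07, edgeR adjusted p = 3.07e-09) at baseline and -1.32 (SE 0.07, adjusted p = 1.30e-09) with bicuculline. Bicuculline itself changed Syn2 by 0.16 (SE 0.07) in Control-shRNA, which did not pass. The estimated counts per TPM of Syn2, which move when the lengths of the transcripts in use change, differed between the shRNAs by -0.11 on the log2 scale in both conditions. The libraries did not overlap in this measure, and 9.86% of 13215 genes differed by as much at baseline.

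The paralogs of Syn2 did not follow it. Syn3, the least abundant synapsin, held 6.32, 11.3, 12.5 and 9.89 CPM in Control-shRNA baseline and 16.9, 15.6, 20.6 and 23.3 CPM in Dnmt3a1-shRNA baseline. With bicuculline it held 6.81, 13, 10.9 and 10.1 CPM in Control-shRNA and 18.4, 22.1, 19.3 and 18.6 CPM in Dnmt3a1-shRNA. The shRNA groups did not overlap, and the log2 fold change was 0.93 (SE 0.19, edgeR adjusted p = 0.00276) at baseline and 0.94 (SE 0.19, adjusted p = 0.00267) with bicuculline. Of the exon bases of Syn3, 14.1% overlap those of Timp3 on the opposite strand, and reads in that stretch cannot be told apart without strand. Timp3 was at 30.1 to 53.7 CPM, and its log2 fold change with the knockdown was -0.01 at baseline and 0.11 with bicuculline. Syn1 was at 907 ± 60.9 CPM (SD, n = 4) in Control-shRNA and 931 ± 52.1 CPM in Dnmt3a1-shRNA at baseline, and its changes of 0.04 and 0.02 (SE 0.06 each) did not pass and turned to -0.04 and -0.05 when scaled by library totals. The summed TPM of the 3 synapsins was 1102 ± 11.3 in Control-shRNA baseline and 799 ± 39.6 in Dnmt3a1-shRNA baseline.

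The other calls were synaptotagmins of low level. Syt12, which lacks calcium-binding residues and is a phosphorylated vesicle protein, held 9.77, 11.3, 12.1 and 14.1 CPM in Control-shRNA baseline and 4.18, 5, 6.51 and 5.52 CPM in Dnmt3a1-shRNA baseline. With bicuculline it held 9.05, 11.2, 8.51 and 10 CPM against 3.13, 4.63, 4.85 and 4.58 CPM. All knockdown libraries were below all control libraries of the same treatment, with log2 fold changes of -1.15 (SE 0.15, edgeR adjusted p = 5.53e-05) and -1.17 (SE 0.16, adjusted p = 6.21e-05). Its exons share 17.2% of their bases with A930001C03Rik on the opposite strand, a gene that did not pass the filter on low counts.

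Syt6, related to Syt3 and Syt10 by shared disulfide-linked dimers, held 9.87, 9.42, 9.46 and 11.8 CPM in Control-shRNA baseline and 7.66, 5.98, 6.03 and 8.62 CPM in Dnmt3a1-shRNA baseline. With bicuculline it held 9.49, 11.4, 10.5 and 11.5 CPM against 8.12, 7.26, 6.2 and 7.57 CPM. Groups did not overlap, but the log2 fold changes of -0.52 (SE 0.12, edgeR adjusted p = 0.00825) and -0.56 (SE 0.13, adjusted p = 0.005) were near the threshold. The baseline call was lost without Control-shRNA baseline replicate 4 (-0.44) and without Dnmt3a1-shRNA baseline replicate 2 or 3 (-0.45 each), and the call with bicuculline without Dnmt3a1-shRNA bicuculline replicate 3 (-0.49).

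Syt10, a calcium sensor for secretion of insulin-like growth factor in olfactory bulb neurons, held 1.9, 1.53, 1.78 and 1.47 CPM in Control-shRNA bicuculline and 0.792, 1.15, 0.82 and 1.11 CPM in Dnmt3a1-shRNA bicuculline. The groups did not overlap, with a log2 fold change of -0.78 (SE 0.21, edgeR adjusted p = 0.0164). The call was lost without Dnmt3a1-shRNA bicuculline replicate 1 (adjusted p = 0.0517). At baseline it held 1.51, 1.23, 1.31 and 2.04 CPM against 0.984, 0.719, 1.05 and 1.25 CPM, which overlapped by a narrow margin, and its change of -0.61 (SE 0.21, edgeR adjusted p = 0.0572) was not called. With the replicate number as a block, Syt10 (-0.60, edgeR adjusted p = 0.0331) and Syt2 (-0.59, adjusted p = 0.00314) were also called lower at baseline, giving 6 members in place of 4. Syt2, the fast sensor of many inhibitory terminals, held 17, 12, 14.5 and 19.5 CPM in Control-shRNA baseline and 18, 6.57, 9.27 and 9.29 CPM in Dnmt3a1-shRNA baseline, so that its groups overlapped. Its change without the block was -0.55 (SE 0.27, edgeR adjusted p = 0.191), and -0.91 (adjusted p = 0.0191) without Dnmt3a1-shRNA baseline replicate 1, the library of 18 CPM. Under the block the counts at baseline without a fold threshold were 13 higher and 9 lower (14.7% and 12.9% of all tested genes).

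Among the cell type markers, Dlx5 (GABAergic) and Csf1r (microglial) were called lower with the knockdown in both conditions, Tubb3 higher at baseline and Lum (fibroblasts) higher with bicuculline, and no other was called. Summed GABAergic markers lay between 1123 and 1456 CPM in Control-shRNA baseline and between 841 and 1144 CPM in Dnmt3a1-shRNA baseline. The other 5 of them, Gad1, Gad2, Dlx1, Dlx2 and Lhx6, were not called, though Gad1 was lower below the fold threshold at baseline (-0.42, edgeR adjusted p = 0.0267). The part of such markers in the synaptotagmin changes was not tested. Excitatory markers lay between 1404 and 1654 CPM and between 1396 and 1641 CPM in the same groups, and none of the 5 was called with the knockdown, though Neurod2 was higher below the fold threshold (0.45 and 0.46).

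**Figure D4:**
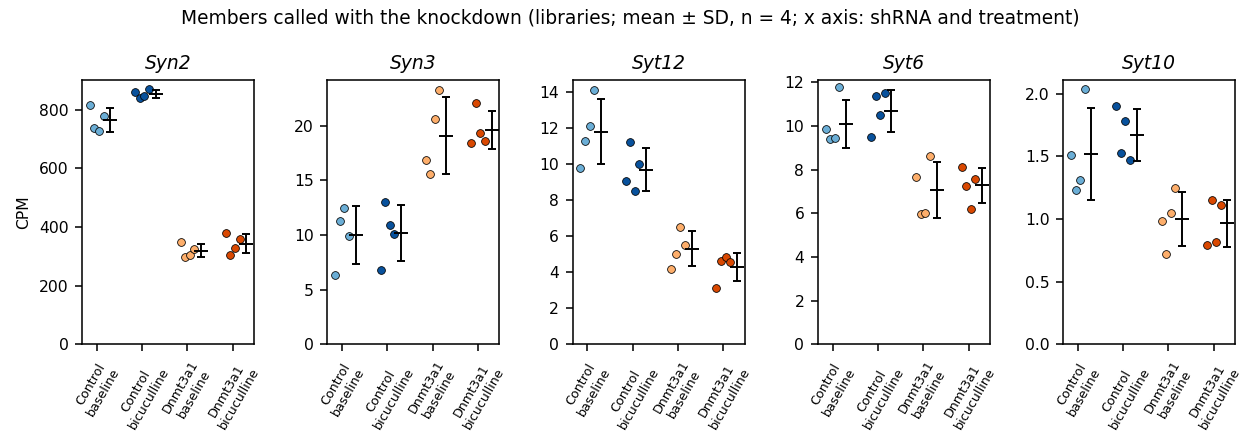
CPM of Syn2, Syn3, Syt12, Syt6 and Syt10 in each of the 16 libraries (points, axes from 0), with the mean ± SD of each group of 4. Syn2, Syt12 and Syt6 are lower and Syn3 higher in the Dnmt3a1-shRNA libraries of both treatments, without overlap; Syt10 overlaps at baseline.

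Below the fold threshold, several more members differed with the knockdown. Synpr (synaptoporin) changed by 0.35 (SE 0.11, edgeR adjusted p = 0.0311) at baseline and 0.35 with bicuculline, Slc17a6 by 0.48 and 0.47, Syt13 by 0.39 and 0.25, Cplx2 by 0.23 and 0.18, and Syngr3 (synaptogyrin-3) by 0.25 and 0.19 on the log2 scale. Doc2b was higher by 0.31 and Stx1a by 0.22 at baseline. Rph3a was lower by -0.37 (SE 0.10, edgeR adjusted p = 0.0195) at baseline and -0.42 with bicuculline. Rims2 was lower at baseline (-0.26), and Sv2b (-0.37) and Slc17a8 (-0.40) with bicuculline. Most of the rises did not pass under other scalings, though each kept its sign. By library totals Doc2b and Syt13 passed again at baseline and none of the 5 with bicuculline, and on log2(TPM + 1) Doc2b alone passed again, at baseline. The decreases passed again by library totals in each case. On TPM that of Rph3a did in both conditions, while those of Rims2 (-0.38), Sv2b (-0.46) and Slc17a8 (-0.35) did not. Library totals moved the median of all genes from 0.01 to -0.07 at baseline and from -0.01 to -0.08 with bicuculline. Such a shift enlarges decreases and shrinks rises, so passing again by library totals does not set the decreases apart. Of the 43 genes, 33 (76.7%) were called in none of the 4 comparisons, beside 66.4% of all tested genes. Vamp2, Snap25, Syt1, Syp, Rab3a and Unc13a were among them. Of these, Vamp2, Snap25 and Syp were higher below the fold threshold with bicuculline in both shRNAs, and Syt1 in Dnmt3a1-shRNA. The large scaffold Pclo varied widely within groups, from 77.1 to 212 CPM in Dnmt3a1-shRNA baseline, and its change of -0.46 (SE 0.25, edgeR adjusted p = 0.232) at baseline did not pass. It was lower in the knockdown library of each of the 4 replicate numbers, from 253, 143, 210 and 240 CPM to 212, 77.1, 133 and 191 CPM, and with the replicate number as a block its change was -0.50 (SE 0.17, adjusted p = 0.0396), which did not exceed the fold threshold. By limma on log2(TPM + 1) it was -0.75 (adjusted p = 0.0438), and without Dnmt3a1-shRNA baseline replicate 2 the edgeR value was -0.24.

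The interaction term asked whether the response to bicuculline differed between the shRNAs. In edgeR it was called for 0 of the 43 members and for 0% of all tested genes. At an unadjusted p under 0.05 it held 0 members and 852 genes (4.95%), and DESeq2 called 0 members and 18 genes. The members' interaction terms ranged from -0.18 for Syt10 to 0.79 (SE 0.50) for Cplx3, the gene of lowest level. For Syt4 the term was -0.08 (SE 0.20), for Slc17a6 -0.01 (SE 0.22), for Sv2c 0.21 (SE 0.17) and for Syn2 -0.05 (SE 0.10). A term that misses the threshold does not show that the responses were equal. After adjustment over all tested genes, differences well above 1 SE could have gone unseen. The term of the marker Tubb3, for example, was -0.35 (SE 0.13, edgeR adjusted p = 0.877) and was not called.

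Shares within a family do not depend on how libraries are scaled. Syn1 made up 56.8, 56.4, 55.4 and 56.5% of the summed TPM of the synapsins in Control-shRNA baseline and 72.5, 75, 72.8 and 73.9% in Dnmt3a1-shRNA baseline. With bicuculline its share was 57.4 ± 1.26% (SD, n = 4) in Control-shRNA and 74.7 ± 1.16% in Dnmt3a1-shRNA. The share of Syn1 was thus 17.3 percentage points higher with the knockdown in both conditions, without overlap. In TPM, Syn1 itself stood at 620 ± 9.26 in Control-shRNA baseline and 588 ± 29.9 in Dnmt3a1-shRNA baseline, and Syn2 at 473 ± 7.2 and 196 ± 11.1. The share of Sv2a in the SV2 transcripts rose from 63.3 ± 1.75% to 71.3 ± 1.52% with bicuculline in Control-shRNA. In Dnmt3a1-shRNA it rose from 66.2 ± 4.79% to 74.7 ± 1.28%, and neither shRNA showed overlap. In Control-shRNA Sv2a itself stood at 272 ± 8.01 TPM at baseline and 262 ± 17.5 TPM with bicuculline, and Sv2b at 148 ± 14.5 and 87.3 ± 7.1 TPM. Slc17a6 made up 1.32 ± 0.158% of the vesicular glutamate transporters in Control-shRNA baseline and 3.8 ± 0.981% with bicuculline, and 2.13 ± 0.264% and 6.28 ± 1.78% in Dnmt3a1-shRNA.

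Smaller shifts of the same kind were seen for complexins and synaptogyrins. Cplx1 went from 65.5 ± 0.896% to 69.6 ± 0.726% of its family with bicuculline in Control-shRNA and Syngr1 from 48.2 ± 1.57% to 43.9 ± 1.42%. Rims1 made up 75 ± 1.42% of Rims1 and Rims2 in Control-shRNA baseline and 79.9 ± 1% in Dnmt3a1-shRNA baseline. Of 40 pairs of family and comparison, 14 reached an exact two-sided permutation p of 0.0286, the smallest that 4 libraries against 4 allow. After Benjamini-Hochberg adjustment over the 40 pairs the smallest adjusted p was 0.0816, so 0 of the shares passed. With this smallest p, a share could pass only if many more of the 40 pairs reached it, so the test cannot decide on single shares.

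**Figure D5:**
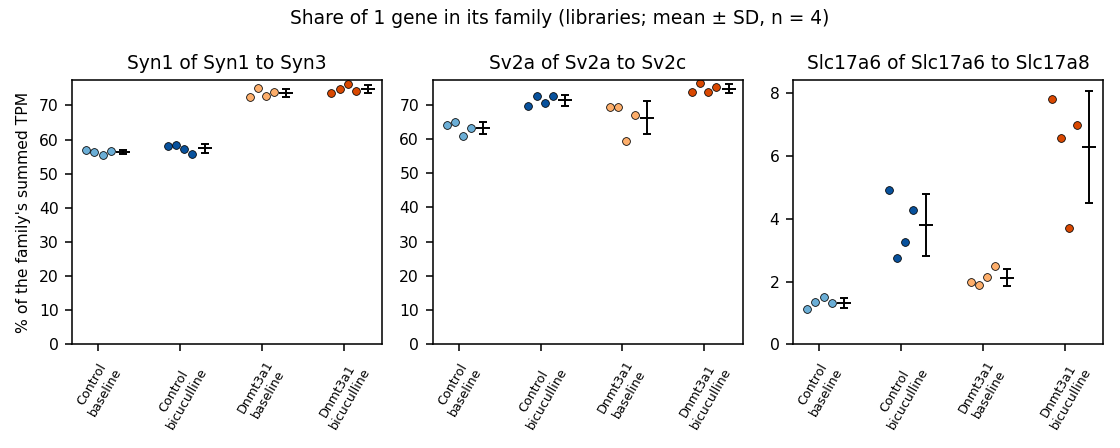
Share of Syn1, Sv2a and Slc17a6 in the summed TPM of their families, in percent, for each of the 16 libraries (points, axes from 0) with the mean ± SD of each group of 4. Syn1 averages 56.3 and 57.4% in the control groups and 73.6 and 74.7% in the knockdown groups, and the shares of Sv2a and Slc17a6 are higher with bicuculline.

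A wider list of 59 other presynaptic genes, for docking and fusion, further synaptotagmins and complexins, active zone and Rab3, vesicle membrane and transporters, and endocytosis, held 56 tested genes. With bicuculline 1 was called higher and 2 lower in Control-shRNA (10.8% and 11.1% of all tested genes), and 2 higher and 2 lower in Dnmt3a1-shRNA (12.6% and 13.2%). Slc18a2, the vesicular monoamine transporter, rose by 0.78 (SE 0.16, edgeR adjusted p = 8.14e-04) and 1.22 on the log2 scale. Rab3d, a small GTPase of secretory granules, changed by -0.60 and -0.72 and Syt14 by -0.58 and -0.57, and Ppfia1, a liprin of the active zone, by 0.61 in Dnmt3a1-shRNA. With the knockdown 0 were called higher and 2 lower in each condition, beside 1.76% and 4.07% of all tested genes at baseline and 2% and 3.9% with bicuculline. Rab27b, a GTPase of vesicle docking, changed by -1.38 (SE 0.13, edgeR adjusted p = 1.03e-06) at baseline and -1.49 with bicuculline, from 26.3 to 10.1 CPM at baseline. Syt16, a synaptotagmin that does not bind calcium, changed by -0.74 (SE 0.07) and -0.96. None of the 15 docking and fusion genes and none of the 10 endocytosis genes was called in any of the 4 comparisons, as was the case for 66.4% of all tested genes.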

How the data were processed

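RNA from 16 primary hippocampal cultures of mice was sequenced as paired reads on a BGISEQ-500. The authors trimmed the reads with Trim Galore 0.6.4 and quantified them with kallisto (version 0.4.6 per the labels) on GRCm38.p6. Per gene, the authors deposited an estimated count, which is not scaled, and a TPM value, which takes account of transcript length and of the library total. Whether the libraries kept strand is not given in the sources used here. Symbols and coordinates were taken from GENCODE M21 and promoter windows from RefSeq.

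Estimated counts, rounded to whole numbers, entered edgeR 4.0.16 (R 4.3.3) with TMM scaling, edgeR's filter by group (17222 genes) and 1 quasi-likelihood fit of the 4 groups. The study's own test, voom with limma, was an alternative, as were DESeq2 1.42.0, limma 3.58.1 on log2(TPM + 1) and log2(TPM + 0.1), other scalings, filters, thresholds and libraries, and a replicate block. Fold changes are given as log2 values from edgeR unless another tool is named. Shares came from TPM, by exact permutation. Depth differed little between libraries, at 28912697 to 29586355 pairs. Replicate libraries differed by more than sampling noise in each pair (chi-square over its degrees of freedom 7.92 to 44.7). The edgeR test was checked on simulated data.

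The labels number the replicates 1 to 4 in each group. Each library's deviation from its group mean was correlated, across genes, which are not independent replicates, with that of the library of the same number in the group compared. Pearson's r was 0.142 to 0.221 for bicuculline in Control-shRNA and 0.204 to 0.355 for the knockdown at baseline. It was 0.0631 to 0.337 for bicuculline in Dnmt3a1-shRNA and 0.0667 to 0.388 for the knockdown with bicuculline, and these ranges overlap. Libraries of different numbers were not correlated, so r had no reference and cannot settle whether the numbers pair the libraries. The main fit did not use the numbers, and the fit with the replicate block used them for all 16 libraries.

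The members and the gene lists were chosen with earlier results of these data known. Values by library are given for the members called in at least 1 comparison. Of the other presynaptic genes, the called ones of at least 1 CPM are named. Values of Syt2 and Pclo were added after they were seen. A further listed marker of excitatory neurons is not reported here and was left out of the sums.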

Additional observations from a re-analysis of the deposited data

Results flagged for a closer look

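Among 172 groups of 4 libraries (43 genes in 4 groups), 8 held a library set apart from the other 3 by a gap above Dixon's 95% critical value. Chance alone flags about 1 group in 20. In Dnmt3a1-shRNA baseline, Sv2b stood at 433 CPM in replicate 3 against 282 to 292 CPM in the others. In replicate 2 of the same group, Syt4 was at 350 CPM (others 396 to 401), Rims2 at 41 CPM (others 52.9 to 54.6) and Bsn, which encodes the scaffold Bassoon, at 348 CPM (others 472 to 491). Synpr was at 62.3 CPM in replicate 4 of that group, with the others at 71.2 to 72.3 CPM. In Control-shRNA bicuculline replicate 2, Sv2a was high at 633 CPM (others 584 to 592) and Snap25 low at 1085 CPM (others 1188 to 1208). Syt12 was low at 3.13 CPM in Dnmt3a1-shRNA bicuculline replicate 1 (others 4.58 to 4.85).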

How the results depend on the processing

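Of the 18 called pairs of member and comparison, 15 stayed called with each library left out in turn, and 17 in each of the 10 other alternative fits. The exceptions were Syt6 (baseline also -0.48 on log2(TPM + 1)) and Syt10, as given in the results. Members called numbered 4, 5, 4 and 5 in the bicuculline (Control-shRNA, Dnmt3a1-shRNA) and knockdown (baseline, bicuculline) comparisons. They numbered 7 by limma on log2(TPM + 0.1) for bicuculline in Control-shRNA and for the knockdown at baseline. Without a fold threshold they were 17, 18, 13 and 13, and over a log2 fold change of 1 they were 3 for bicuculline in Dnmt3a1-shRNA and 2 for the knockdown in each condition. Of the 56 other presynaptic genes tested, 22, 24, 10 and 12 passed without a fold threshold, and 0, 1, 1 and 1 over 1. Without a fold threshold, 19.5% of all tested genes were higher and 21.9% lower with bicuculline in Control-shRNA, and 20.8% and 25.2% in Dnmt3a1-shRNA. With the knockdown these shares were 8.12% and 8.19% at baseline and 7.69% and 9.99% with bicuculline. For the counts over 1, on log2(TPM + 0.1) and of calls with the replicate block, the share of all genes is not given. With the replicate block 4, 5, 6 and 6 members were called, and no call was lost; Syt2 (-0.57, edgeR adjusted p = 0.00416) was the one added with bicuculline. In the interaction, 0 members were called with the block.

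Signs turned for small changes. With bicuculline, Syngr3 was -0.01 in Control-shRNA by limma on both TPM scales. Sv2a was -0.0028 and -0.002 by library totals and -0.05 and -0.04 on both TPM scales in Control-shRNA and Dnmt3a1-shRNA. Cplx1 was -0.01 on both in Dnmt3a1-shRNA. Slc17a7 was -0.11 by library totals and -0.17 on TPM in Control-shRNA, and lay between -0.00021 and 0.07 there and between -0.13 and 0.02 in Dnmt3a1-shRNA with a library left out. With the knockdown, Syn1 was -0.04 and -0.05 by library totals and -0.08 and -0.09 on TPM, and lay between 0.00045 and 0.08 at baseline and between -0.0038 and 0.06 with bicuculline with a library left out. The share of Syt1 with the knockdown at baseline turned to -0.0357 points when taken from CPM. The causes were not tested. Leaving out a library, or pairing by number, cannot bring a share's exact permutation test below the threshold, so the former gave values without a test and the latter was not run.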
